A study of Mus musculus with 6 samples.

Results

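The long-chain acyl-CoA synthetases were examined in RNA-seq libraries of 6 mice with lung cancer, 3 treated with artemisinin, an endoperoxide drug used against malaria, and 3 left as the untreated model. The genes were chosen by symbol: Acsl1, Acsl3, Acsl4, Acsl5 and Acsl6 of the long-chain family, Acsbg1 of the bubblegum family, and the acetate-activating relatives Acss1 and Acss2. All 8 were found among the 18238 genes of the count table, and all 8 passed the filter on low counts, which kept 15242 genes. The labels give every mouse lung cancer and set the groups apart only by artemisinin. The sources used here do not give strain, sex, age, the way the cancer was induced, dose, time or the exact tissue taken. Libraries are called artemisinin replicates 1 to 3 and model replicates 1 to 3, with each taken as 1 mouse. Nothing else in the labels says that they came from separate animals, so the p-values measure the spread between these libraries.

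These enzymes join a free fatty acid to coenzyme A at the cost of ATP, the step without which a fatty acid can be neither built into lipid nor oxidised. The paralogs differ in the membranes they sit on and in the fatty acids they prefer. ACSL4 favours arachidonate and adrenate, and its acyl-CoA, once placed in membrane phospholipids by LPCAT3, is the substrate of the lipid peroxidation that kills cells by ferroptosis. In lung, alveolar type 2 cells use acyl-CoA in bulk to make the phospholipids of surfactant. The comparison asked whether a difference in Acsl4 between the treated and the model mice was shared by its paralogs.

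Acsl4 fell with artemisinin, and no other gene of the 8 passed the test. Acsl5, Acsl3 and Acss1 had lower values in every artemisinin library than in any model library, by smaller factors, while Acsl1 and Acsbg1 had higher values in every artemisinin library. Of the 8 genes, 1 was called lower and 0 higher in the quasi-likelihood test of edgeR (Benjamini-Hochberg adjusted p under 0.05, adjusted over all genes tested). Over all genes tested 2.30% were called lower and 2.17% higher, or 4.47% in either direction. At an unadjusted p under 0.05 there were 4 lower and 3 higher, against 24.7% of all genes in either direction. DESeq2 called 3 lower and 2 higher, where it called 6.94% of all genes lower and 8.14% higher. The groups did not overlap in 4 genes that were lower and 2 that were higher with artemisinin, where 17.3% and 16.3% of all genes showed this. The median log2 fold change was −0.17 over the 8 genes and 0.04 over all genes.

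**Figure D1:**
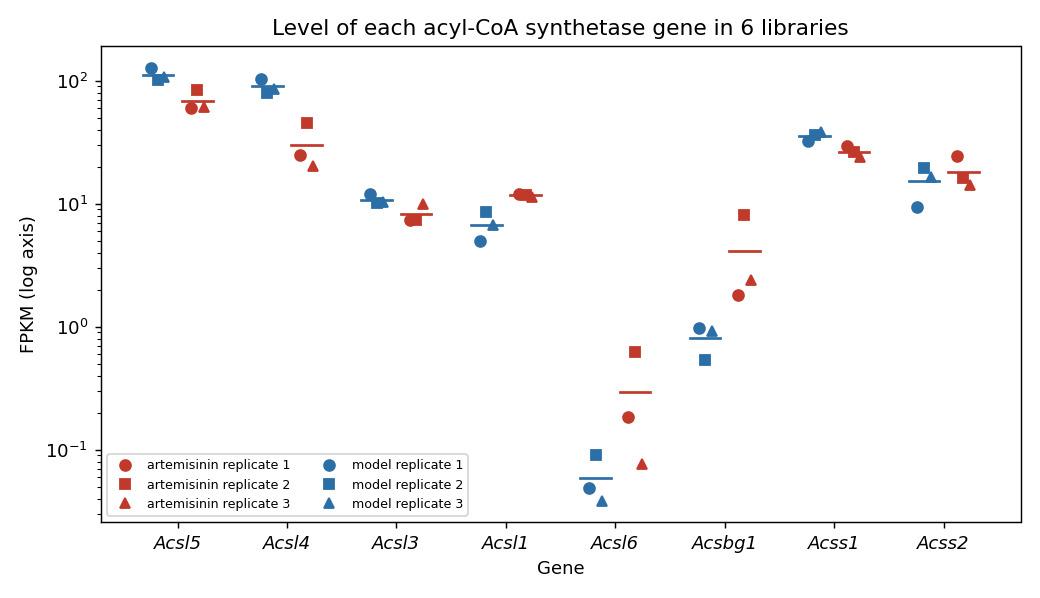
FPKM of each gene on a log axis in the 6 libraries, where each point is 1 library and each bar the mean of 3. The artemisinin points of Acsl4 lie between 20.1 and 45.4 and its model points between 80.0 and 104.1, while those of Acsl1 lie the other way round.

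The libraries held 25566173 to 34745497 counts, with 16566 to 17015 genes detected. Markers of lung epithelium were abundant in each, with Sftpc, which encodes surfactant protein C, at 2974 to 35144 CPM (counts scaled to a common library total). Artemisinin replicate 2 stood apart: the summed level of 12 skeletal muscle markers was 7776 CPM there against 75.5 to 316 in the other libraries, and that of 10 keratinocyte markers 1198 against 9.82 to 24.0. Artemisinin replicate 1 held the most fat and heart muscle transcripts, with 752 CPM over 12 adipocyte markers against 41.4 to 125 elsewhere and 1333 CPM over 10 cardiac markers against 132 to 360. In bulk tissue, fewer cells of a type and less RNA per cell cannot be told apart.

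Acsl4, the arachidonate-preferring enzyme (Entrez gene 50790; chromosome X, 142317993 to 142390802, GRCm38, protein coding), was the gene called. Its normalised level was 123.3, 242.9 and 100.8 CPM in artemisinin replicates 1 to 3 and 580.2, 430.3 and 475.1 CPM in model replicates 1 to 3. Every treated library lay below every model library, and artemisinin replicate 2 lay nearest to them. The group means were 155.7 ± 76.3 with artemisinin and 495.2 ± 76.9 CPM in the model (SD, n = 3 per group), a 3.18-fold fall (log2 scale −1.67 ± 0.34, SE; adjusted p = 0.0425 in edgeR). The counts behind these values were 3337 to 7708 and 13936 to 19110, so counting error is small beside the spread between mice. The Acsl4 call lay close to the threshold. It held without artemisinin replicate 2 (log2 −2.14, adjusted p = 0.00867), and was lost without artemisinin replicate 1 or 3 (−1.53 and −1.48; 0.102 and 0.0641) or model replicate 1, 2 or 3 (−1.54, −1.80 and −1.70; 0.18, 0.0859 and 0.133).

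Markers of alveolar type 2 cells moved with Acsl4. Of 12 such markers 12 had a log2 fold change below 0, and 7 were called lower, where 2.30% of all genes tested were. All values below are for the markers. Their summed level was 11544 to 29797 CPM with artemisinin and 65546 to 94695 CPM in the model, and no marker was at 0 in all libraries. Like Acsl4, the sum was highest in artemisinin replicate 2 among the treated libraries and in model replicate 1 among the model libraries. The 10 alveolar type 1 markers summed to 4255 to 7609 CPM with artemisinin and 4736 to 6595 in the model, and 0 of them passed in edgeR with or without adjustment. The part of cell composition in the Acsl4 value was not tested.

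The bases just upstream of a start site that RefSeq lists for Acsl4, for Acsl5, which lay lower in the same libraries, and for Acsl1, which lay higher, are shown because the 3 genes differ in direction. Each run is 250 bases on the gene's strand and ends at the base before the start (GRCm38.p6), and capitals mark GC boxes (GGGCGG) and CCAAT boxes on either strand. For Acsl1 the upstream of its 2 listed starts that begins the annotated gene is given. The windows of Acsl4 and Acsl5 lie inside the annotated spans of their genes (142317993 to 142390802 and 55251861 to 55296628). The 3 windows are thus placed differently within their genes.
Acsl4, chrX:142390536-142390785, minus strand: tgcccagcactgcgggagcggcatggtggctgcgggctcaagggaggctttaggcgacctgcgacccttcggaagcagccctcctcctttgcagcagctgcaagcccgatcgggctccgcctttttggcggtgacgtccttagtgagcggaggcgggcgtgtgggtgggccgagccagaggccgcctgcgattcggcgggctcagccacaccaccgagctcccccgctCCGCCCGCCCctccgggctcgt
Acsl5, chr19:55253119-55253368, plus strand: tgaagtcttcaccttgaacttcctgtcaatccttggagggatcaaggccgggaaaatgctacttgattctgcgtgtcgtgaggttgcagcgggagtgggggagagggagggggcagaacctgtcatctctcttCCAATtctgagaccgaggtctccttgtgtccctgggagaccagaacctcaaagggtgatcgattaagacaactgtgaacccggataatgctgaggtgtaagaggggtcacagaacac
Acsl1, chr8:46470787-46471036, plus strand: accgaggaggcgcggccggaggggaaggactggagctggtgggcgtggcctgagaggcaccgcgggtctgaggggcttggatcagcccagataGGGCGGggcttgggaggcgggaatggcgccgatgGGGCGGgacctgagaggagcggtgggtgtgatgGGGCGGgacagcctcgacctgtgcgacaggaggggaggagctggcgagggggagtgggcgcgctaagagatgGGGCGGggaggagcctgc
The Acsl4 window had 2 GC boxes that overlap each other, beginning 22 and 18 bases before the start, and no CCAAT box. The Acsl1 window had 4 GC boxes, and that of Acsl5 had none and 1 CCAAT box, which begins 117 bases before the start. A GC box was present in 32.7% and a CCAAT box in 33.8% of the 32851 upstream windows of this length in the table. None of the 3 windows held TATAAA, the E-box CACGTG or the cAMP response element TGACGTCA, searched on both strands and present in 12.4%, 6.02% and 1.55% of all windows. The windows were 70.8% G or C for Acsl4, 72.0% for Acsl1 and 52.8% for Acsl5, where the median of all windows was 52.4%. The window at the other listed start of Acsl1, not shown, had 0 GC boxes, 2 CCAAT boxes and 48.4% G or C. These matches describe letters only.

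Acsl5, an enzyme of mitochondria and the endoplasmic reticulum (Entrez gene 433256; chromosome 19, 55251861 to 55296628), had the highest level per length of the 8 genes in both groups. Its values were 191.8, 286.8 and 194.7 CPM in the artemisinin libraries and 454.3, 346.6 and 373.1 CPM in the model libraries. As for Acsl4, the groups did not overlap and artemisinin replicate 2 was the highest treated library. The means were 224.4 ± 54.0 and 391.3 ± 56.1 CPM (SD, n = 3 per group), with a log2 fold change of −0.80 ± 0.22 (SE), and the difference missed the threshold (adjusted p = 0.0837 in edgeR). It was called by DESeq2 (adjusted p = 0.00427) and by edgeR without artemisinin replicate 2 (log2 −1.02, adjusted p = 0.0286). Acsl5 shares 404 of its 4864 exonic bases with Zdhhc6 on the opposite strand in the GENCODE annotation, while Acsl4 and Acsbg1 share none with any gene. Acsl3 shares 244 exonic bases with Utp14b on its own strand, and Acss2 shares 197 with Ggt7 and 395 with Gss on the opposite strand. The remaining overlaps were with genes that have no counts here. The longest of these was 1039 of the 10483 exonic bases of Acsl1, with Gm45244 on the opposite strand.

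Acsl3, the synthetase of the endoplasmic reticulum and of growing lipid droplets (Entrez gene 74205; chromosome 1, 78657825 to 78707743), is the closest relative of Acsl4 in the family. It had 27.3, 29.7 and 37.5 CPM in the artemisinin libraries and 49.8, 40.4 and 42.7 CPM in the model libraries. The groups did not overlap, but the highest treated and the lowest model library were close together. The means were 31.5 ± 5.31 and 44.3 ± 4.91 CPM (SD, n = 3 per group; log2 −0.49 ± 0.17, SE; adjusted p = 0.135 in edgeR). It was not called under any of the 15 alternatives tried, with adjusted p between 0.0778 and 0.379.

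Acsl1, the main synthetase of fat, liver and heart (Entrez gene 14081; chromosome 8, 46471037 to 46536051), lay on the other side. Its values were 74.7, 79.5 and 71.7 CPM with artemisinin and 34.5, 57.7 and 46.5 CPM in the model. The treated libraries were close to each other and all above the model libraries. The means were 75.3 ± 3.95 and 46.2 ± 11.6 CPM (SD, n = 3 per group; log2 0.70 ± 0.20, SE; adjusted p = 0.0888 in edgeR), which was not called. DESeq2 gave an adjusted p of 0.0186. Acsl1 was about as high in artemisinin replicate 2, where the adipocyte and cardiac markers summed to 97.5 and 339 CPM, as in artemisinin replicate 1, where they summed to 752 and 1333 CPM. Over all genes tested 2.17% were called higher. Of the adipocyte markers 10 of 10 tested lay above 0 and 1 was called higher, and of the cardiac markers 9 of 9 lay above 0 and 2 were called higher. Of 9 smooth muscle markers 9 were called higher, and none was at 0 in all libraries. They summed to 1916, 2004 and 1144 CPM with artemisinin and to 311, 474 and 407 CPM in the model. This is the order of Acsl1 within each group, although its treated values differ little. The adipocyte, cardiac, club cell and ciliated cell sums had the same order in the model libraries, but not in the treated ones. The part of these markers in the Acsl1 value was not tested.

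Acsl6 and Acsbg1 were low and were dominated by 1 library. Acsl6, best known for handling polyunsaturated fatty acids in brain (Entrez gene 216739; chromosome 11, 54303805 to 54364756), had 33, 140 and 18 counts in the artemisinin libraries and 12, 21 and 9 counts in the model libraries. The groups overlapped, since artemisinin replicate 3 stood at 0.515 CPM and model replicate 2 at 0.648 CPM. Its log2 fold change was 2.23 ± 0.86 (SE; adjusted p = 0.17 in edgeR), and 0.99 without artemisinin replicate 2. Acsbg1, which activates very long chains in brain and steroid-producing cells (Entrez gene 94180; chromosome 9, 54604886 to 54661885), had 5.73, 27.6 and 7.73 CPM with artemisinin and 3.49, 1.85 and 3.25 CPM in the model. All treated values were above all model values, and artemisinin replicate 2 was the highest by far. The log2 fold change of Acsbg1 was 2.26 ± 0.63 (SE; adjusted p = 0.0902 in edgeR), and 1.23 without that library (adjusted p = 0.101). DESeq2 called Acsbg1 with all libraries (adjusted p = 0.00295). Artemisinin replicate 2 is the library with the skeletal muscle and keratinocyte transcripts, whose part in both values was not tested.

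The acetate-activating enzymes differed from each other. Acss1, the mitochondrial acetyl-CoA synthetase (Entrez gene 68738; chromosome 2, 150618111 to 150668240), had 99.4, 95.9 and 82.4 CPM with artemisinin and 123.6, 132.4 and 143.9 CPM in the model. The groups did not overlap, and the spread within each was small. The means were 92.6 ± 8.96 and 133.3 ± 10.1 CPM (SD, n = 3 per group; log2 −0.53 ± 0.14, SE; adjusted p = 0.0796 in edgeR), and DESeq2 gave an adjusted p of 0.00603. Acss2, the cytosolic and nuclear enzyme (Entrez gene 60525; chromosome 2, 155518043 to 155562743), had 64.9, 46.7 and 38.4 CPM with artemisinin and 28.4, 56.7 and 49.2 CPM in the model. The groups overlapped over most of their range. Its log2 fold change was 0.16 ± 0.29 (SE; adjusted p = 0.754 in edgeR), and it turned to −0.07 without artemisinin replicate 1 and to −0.09 without model replicate 1.

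**Figure D2:**
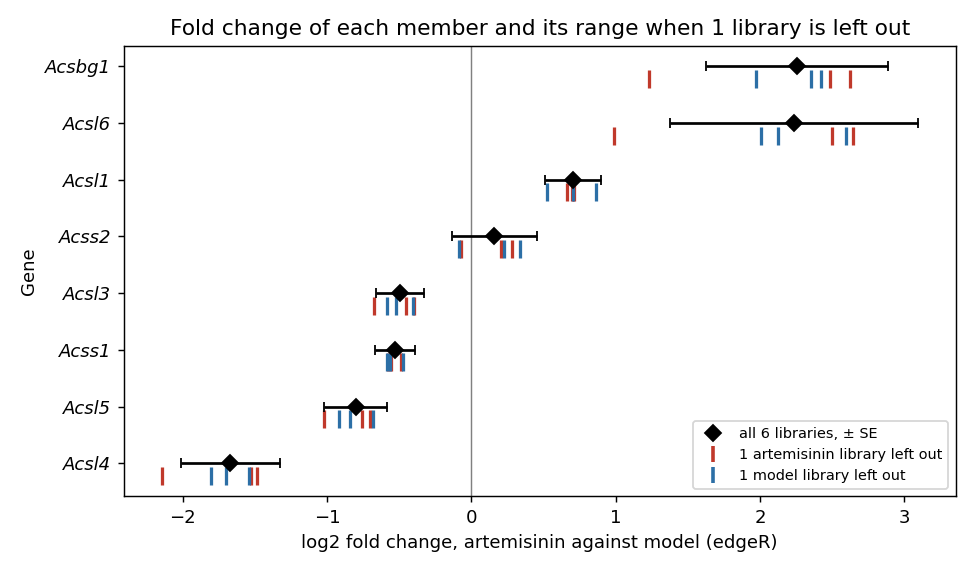
Log2 fold change of each gene, artemisinin against model, from edgeR (diamond, ± SE) with the value when 1 library is left out (ticks). Acsl4 stays between −2.14 and −1.48, the ticks of Acsl6 and Acsbg1 reach down to 0.99 and 1.23 without artemisinin replicate 2, and those of Acss2 lie on both sides of 0.

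Whether a paralog changed by the same factor as Acsl4 was asked of the ratio of their counts within each library, which does not depend on library scaling. The ratio of Acsl4 to each of the other 7 genes was lower in every artemisinin library than in any model library. Against Acsl5 the log2 ratio was −0.64, −0.24 and −0.95 in the artemisinin libraries and 0.35, 0.31 and 0.35 in the model libraries. The model mice thus held an almost constant proportion of the 2 transcripts, and the treated mice a smaller and more variable one. The mean log2 ratio differed by −0.95 between the groups for Acsl5, by −1.24 for Acss1 and by −1.27 for Acsl3. For Acss2, Acsl1, Acsl6 and Acsbg1 it differed by −1.95, −2.50, −3.52 and −3.71. Each gave an exact two-sided permutation p of 0.1, and 0.1 after Benjamini-Hochberg adjustment over the 7 ratios, which is the smallest p that 3 against 3 can give. A ratio of Acsl4 that separated the groups in this way was common, since 90.0% of the other 15241 genes tested showed it. Among the 5 Acsl genes and their relatives, then, Acsl4 had the lowest treated-to-model ratio, and by the difference of group means Acsl5 came closest to it.

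**Figure D3:**
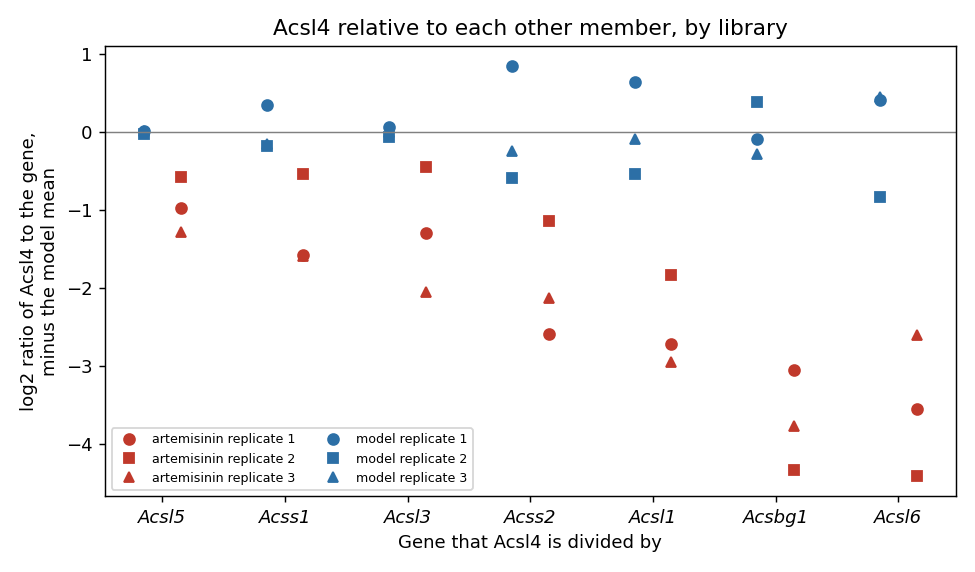
Log2 ratio of Acsl4 counts to those of each other gene in every library, centred on the mean of the 3 model libraries. All 3 artemisinin points lie below all 3 model points in each column, the difference of the group means is smallest for Acsl5, and artemisinin replicate 2 is the highest treated point in 5 columns and the lowest for Acsbg1 and Acsl6.

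Levels of different genes were set side by side in FPKM, which divides counts by gene length and library total. In the model the order was Acsl5 at 111.9 ± 14.2, Acsl4 at 90.1 ± 12.5, Acss1 at 35.7 ± 2.92, Acss2 at 15.3 ± 5.22, Acsl3 at 10.8 ± 1.02, Acsl1 at 6.76 ± 1.82, Acsbg1 at 0.814 ± 0.24 and Acsl6 at 0.0592 ± 0.0273 FPKM (SD, n = 3). The ranges of neighbours overlapped for Acsl5 and Acsl4 and for Acss2 and Acsl3, although Acsl5 exceeded Acsl4 in 3 of 3 model libraries. With artemisinin the order was Acsl5 at 68.6 ± 13.6, Acsl4 at 30.1 ± 13.5, Acss1 at 26.6 ± 2.55, Acss2 at 18.3 ± 5.27, Acsl1 at 11.8 ± 0.287, Acsl3 at 8.25 ± 1.52, Acsbg1 at 4.10 ± 3.47 and Acsl6 at 0.292 ± 0.286 FPKM. Acsl4 was now no longer separate from Acss1, which it exceeded in 1 of 3 treated libraries, and the places of Acsl3 and Acsl1 were exchanged. Acsl3 and Acsbg1 also overlapped, as did Acss1 and Acss2.

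Taken as a pool, the 5 Acsl genes gave less transcript per library total in the treated mice. Their FPKM summed to 105, 149.7 and 103 in the artemisinin libraries and to 249, 200 and 209.9 in the model libraries. Acsl4 made up 23.6%, 30.3% and 19.6% of that sum with artemisinin and 41.8%, 40.0% and 41.1% in the model. Its share was thus nearly fixed among the model mice and lower in each treated mouse. Acsl5 took 56.3% to 59.5% with artemisinin against 50.6% to 51.4%, and Acsl1 took 7.94% to 11.4% against 1.99% to 4.29%. Acsl3 had 4.97% to 9.74% against at most 5.03%, and its groups overlapped. Transcript of Acsl4 exceeded that of Acsl1 by a factor of 1.76 to 3.82 in FPKM with artemisinin and by a factor of 9.32 to 21.0 in the model.

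**Figure D4:**
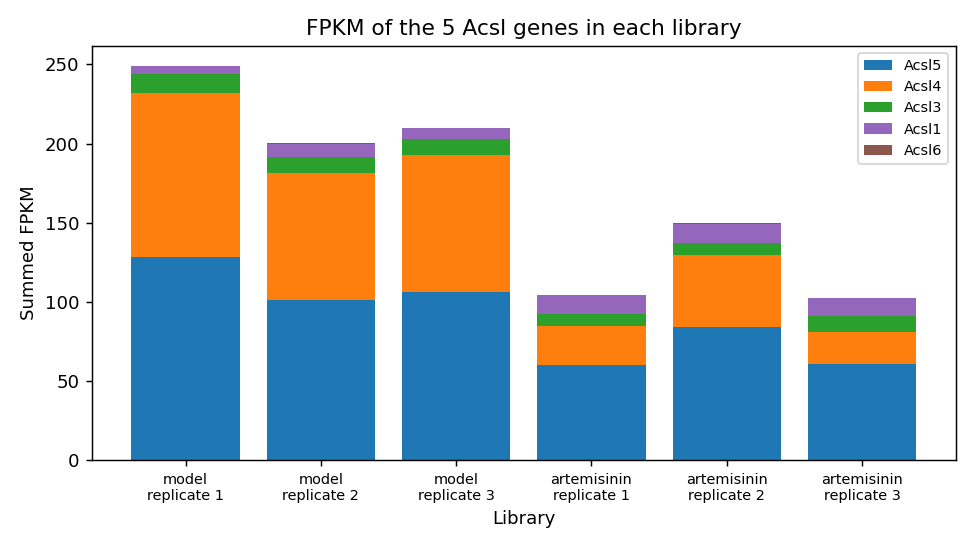
FPKM of the 5 Acsl genes stacked for each library. The model bars reach 200 to 249 and the artemisinin bars 103 to 149.7, with most of the gap in the segments of Acsl5 and Acsl4.

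The genes whose profile over the 6 libraries was most like that of Acsl4 were found by the root mean square difference of log2 CPM, each gene centred on its own mean, among 12270 genes that averaged 5 CPM or more. They were Ptprf, a receptor tyrosine phosphatase gene, at a difference of 0.0508, the sorting nexin gene Snx25 at 0.055 and Paqr8, a membrane progestin receptor gene, at 0.0847. Ptprf had 185.3, 393.4 and 153.1 CPM with artemisinin and 869.5, 628.5 and 752.5 CPM in the model. Snx25 had 67.7, 145.4 and 62.3 CPM against 327.2, 249.6 and 278.7 CPM. Both are highest in artemisinin replicate 2 among the treated libraries and in model replicate 1 among the model libraries, the order of Acsl4. Their log2 fold changes were −1.62 ± 0.37 and −1.64 ± 0.34 (SE; adjusted p = 0.0551 and 0.0444 in edgeR). Because these genes were picked by their likeness to Acsl4 in the same libraries, the shared order and the similar fold change follow from that choice.

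Among the other enzymes that make acyl-CoA the share of calls was near that of all genes. Of 16 tested, 1 rose and 0 fell in edgeR, or 6.25% against 4.47% of all genes, with a median log2 fold change of 0.30 against 0.04 over all genes. At an unadjusted p under 0.05 there were 3 higher and 1 lower, where 24.7% of all genes passed in either direction. DESeq2 called 2 higher and 0 lower, where it called 15.1% of all genes. Slc27a3, a fatty acid transport protein with synthetase activity, rose from 7.64 ± 0.805 to 16.8 ± 2.27 CPM (SD, n = 3 per group; log2 1.14 ± 0.20, SE; adjusted p = 0.029 in edgeR). Its treated values of 14.6, 16.6 and 19.2 CPM lay well above the highest model value of 8.18 CPM.

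Enzymes that place acyl chains in lipid included calls in both directions. Of 32 acyltransferase and lipid droplet genes, 2 rose and 2 fell in edgeR, or 12.5% against 4.47% of all genes. Their median log2 fold change was 0.11. At an unadjusted p under 0.05, 6 of these were higher and 8 lower, where 24.7% of all genes passed. DESeq2 called 4 higher and 6 lower, where it called 15.1% of all genes. Lpcat1, which remodels the phosphatidylcholine of surfactant, fell from 1108 ± 208 to 289 ± 124 CPM (log2 −1.94 ± 0.35, SE; adjusted p = 0.0303 in edgeR). Its values of 287, 414 and 166 CPM with artemisinin and 1329, 915 and 1081 CPM in the model followed the order of the alveolar type 2 marker sums, which were 18972, 29797 and 11544 CPM and 94695, 65546 and 79318 CPM. The part of those markers in the Lpcat1 value was not tested. Soat1, which esterifies cholesterol, fell from 212 ± 30.8 to 94.4 ± 21.2 CPM (adjusted p = 0.0291 in edgeR). Dgat2, which makes triglyceride, rose from 10.6 ± 1.18 to 38.4 ± 15.6 CPM (adjusted p = 0.0242 in edgeR), and Plin4, a lipid droplet coat gene, from 4.54 ± 2.31 to 21.7 ± 7.63 CPM (adjusted p = 0.0335 in edgeR; SD, n = 3 per group throughout). Dgat2 was highest in artemisinin replicate 1, at 55.8 CPM, the library with the most adipocyte transcript, and stood at 33.6 and 25.9 CPM in the other treated libraries against at most 11.9 CPM in the model. Without artemisinin replicate 1 Dgat2 was still called in edgeR (log2 1.49, against 1.86 with all libraries; adjusted p = 0.0327). Plin4, Lpcat1 and Soat1 were not called in that fit (log2 2.27, −1.93 and −1.03, against 2.25, −1.94 and −1.17 with all libraries; adjusted p = 0.0777, 0.0802 and 0.0576). The adipocyte markers summed to 97.5 and 125 CPM in the other treated libraries, against 41.4 to 71.7 in the model. The part of these markers in the Dgat2 and Plin4 values was not tested.

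The partners of Acsl4 in arachidonate handling and ferroptosis were called about as often as all genes. Of 26 genes tested 1 rose and 0 fell in edgeR, or 3.85% against 4.47%, with a median log2 fold change of 0.10. At an unadjusted p under 0.05, 1 was higher and 4 were lower, where 24.7% of all genes passed. DESeq2 called 1 higher and 2 lower, where it called 15.1% of all genes. Lpcat3, which puts the arachidonoyl-CoA made by ACSL4 into phospholipid, had 50.8, 73.6 and 57.6 CPM with artemisinin and 118, 84.1 and 87.1 CPM in the model. Its groups did not overlap (log2 −0.67 ± 0.20, SE; adjusted p = 0.104 in edgeR). Without artemisinin replicate 2 the Lpcat3 difference was called in edgeR (log2 −0.83, adjusted p = 0.0494). DESeq2 called Lpcat3 with all libraries (adjusted p = 0.0266). Gpx4, the peroxidase that reduces lipid hydroperoxides, had 364 ± 116 and 316 ± 15.4 CPM (SD, n = 3 per group; log2 0.20 ± 0.24, SE; adjusted p = 0.62 in edgeR). Alox5ap, the activating protein of 5-lipoxygenase in leukocytes, rose from 46.9 ± 3.18 to 120 ± 34.9 CPM (log2 1.36 ± 0.21, SE; adjusted p = 0.0236 in edgeR). It was highest in artemisinin replicate 3, at 160 CPM, where the 13 neutrophil markers also summed highest, at 5268 CPM against 927 and 1239 in the other treated libraries and 187 to 255 in the model. All 13 of those markers lay above 0 and 6 were called higher, where 2.17% of all genes tested were. The part of these markers in the Alox5ap value was not tested.

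Genes that supply fatty acids had 15 log2 fold changes below 0 and 8 above in the synthesis list. Of 23 synthesis, elongation and desaturation genes 2 rose and 1 fell in edgeR, or 13.0% against 4.47% of all genes. Their median log2 fold change was −0.32. At an unadjusted p under 0.05, 3 of these were higher and 7 lower, where 24.7% of all genes passed. DESeq2 called 2 higher and 5 lower, where it called 15.1% of all genes. Acly, which makes acetyl-CoA from citrate, fell from 466 ± 36.5 to 232 ± 38.0 CPM (SD, n = 3 per group; log2 −1.01 ± 0.18, SE; adjusted p = 0.0295 in edgeR). Elovl6, which extends palmitate, rose from 7.96 ± 0.708 to 25.3 ± 5.02 CPM (log2 1.67 ± 0.20, SE; adjusted p = 0.013 in edgeR), and the dehydratase gene Hacd4 rose from 17.7 ± 3.23 to 34.6 ± 4.11 CPM (adjusted p = 0.0374 in edgeR). Elovl6 is thus opposite in direction to Acly. Fasn, the fatty acid synthase, had 424 ± 205 with artemisinin and 1058 ± 277 CPM in the model and missed the threshold (log2 −1.32 ± 0.39, SE; adjusted p = 0.102 in edgeR), as did the desaturase gene Scd1 (log2 −0.97 ± 0.63; adjusted p = 0.367). DESeq2 called Fasn (adjusted p = 0.00425) but not Scd1 (adjusted p = 0.217). Without artemisinin replicate 2 the list had 2 genes called higher and 5 lower, in a fit that called 670 and 713 of 15427 genes. Among 20 tested genes of uptake, binding and release, 1 rose and 0 fell in edgeR, with a median of 0.08. At an unadjusted p under 0.05, 4 were higher and 2 lower, where 24.7% of all genes passed. DESeq2 called 4 higher and 2 lower, where it called 15.1% of all genes. The gene that rose in edgeR was Fabp7, a fatty acid binding protein, at 3.25, 4.76 and 2.09 CPM with artemisinin against 0.063 to 0.213 CPM in the model (adjusted p = 0.0182 in edgeR).

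Genes that burn or release acyl-CoA gave no call in the main edgeR fit. Of 35 beta-oxidation genes 0 were called, where 4.47% of all genes were, with a median log2 fold change of −0.18. At a share of 4.47%, lists this short would hold few calls. At an unadjusted p under 0.05, 2 were higher and 7 lower, and DESeq2 called 1 higher and 2 lower. In edgeR, 1 was called higher with RLE size factors, with scaling by library totals, and without artemisinin replicate 3. Over all genes 24.7% passed unadjusted and DESeq2 called 15.1%, in either direction, which holds for the next 2 lists as well. Cpt1a, the carnitine palmitoyltransferase that admits long chains to mitochondria, had 139 ± 41.9 with artemisinin and 157 ± 13.1 CPM in the model (SD, n = 3 per group; log2 −0.18 ± 0.24, SE; adjusted p = 0.664 in edgeR). Of 11 thioesterases, which split acyl-CoA again, 0 were called, with 1 higher and 0 lower at an unadjusted p under 0.05 and 0 called by DESeq2. Of 15 lipid transcription factors and their regulators 0 were called, with 1 higher and 5 lower at an unadjusted p under 0.05 and 0 by DESeq2. Ppara and Pparg, receptors that switch on Acsl1 among other genes, had log2 fold changes of −0.64 ± 0.24 and −0.06 ± 0.16 (SE; adjusted p = 0.164 and 0.837 in edgeR). Srebf1, the activator of fatty acid synthesis genes, had −0.29 ± 0.17 (adjusted p = 0.312 in edgeR).

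**Figure D5:**
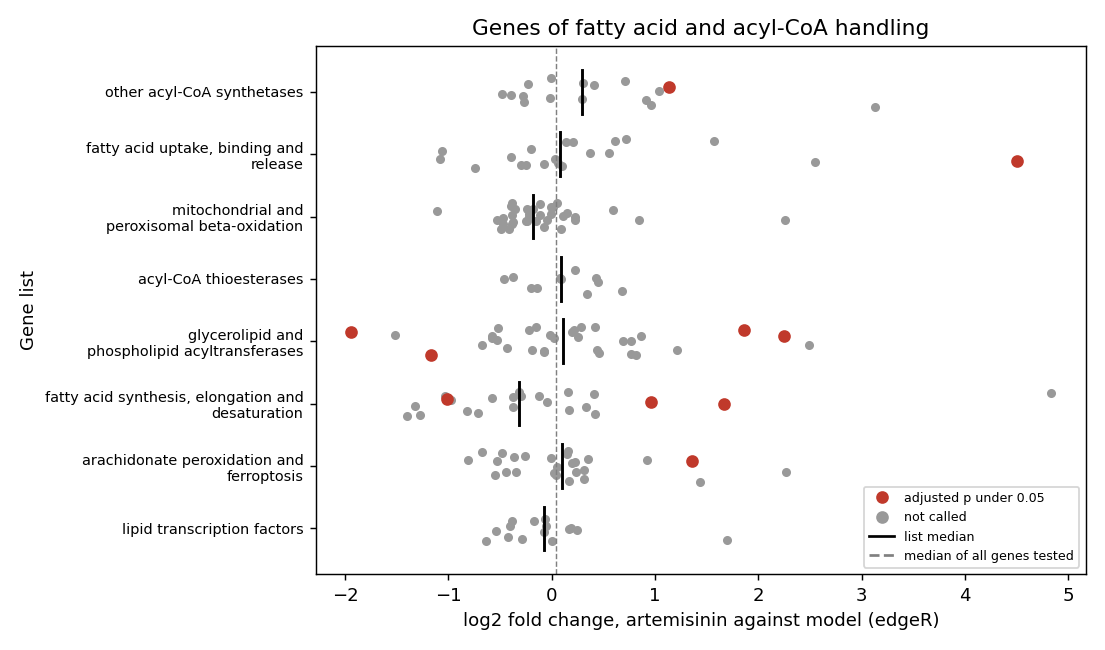
Log2 fold change of each tested gene in the 8 lists of fatty acid and acyl-CoA handling, where each point is 1 gene, black bars are list medians and the dashed line is the median of all genes, 0.04. Called genes (red) lie on both sides in the acyltransferase and fatty acid synthesis lists, and the oxidation, thioesterase and transcription factor lists hold none.

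Leaving out 1 library, which leaves fewer mice in the fit, ended several of the calls above with little change in the fold. Slc27a3, Soat1, Acly and Hacd4 were not called without artemisinin replicate 3, where their log2 fold changes were 0.99, −1.19, −0.96 and 1.02, against 1.14, −1.17, −1.01 and 0.96 with all libraries (adjusted p = 0.0689, 0.0559, 0.0559 and 0.0538). Without artemisinin replicate 1 Acly had −0.96 and Hacd4 0.94 (0.0614 and 0.0742). Snx25 had −1.46 without artemisinin replicate 1 and −1.47 without artemisinin replicate 3, and was called in neither fit (0.101 and 0.0712). With model replicate 1, 2 or 3 left out, edgeR called none of the genes named here as called, except Plin4 without model replicate 2 (log2 2.71, adjusted p = 0.0457). Elovl6, Dgat2, Alox5ap and Fabp7 were called with each artemisinin library left out. Without artemisinin replicate 2, edgeR called 5 acyltransferase and lipid droplet genes higher and 5 lower, and 2 uptake genes higher and 3 lower. It also called 3 of the other synthetases higher, 2 ferroptosis genes lower and 2 beta-oxidation genes lower. Calls over all genes rose in that fit too, to 670 higher and 713 lower of 15427, against 331 and 351 of 15242 with all libraries.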

How the data were processed

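Per the labels' protocols, RNA came from the mirVana kit and stranded mRNA libraries from a TruSeq kit. The genome build was GRCm38 (mm10), per the submitters' processing notes. The sources used here do not give the aligner, the counting tool or the strand setting, and antisense reads may be counted in. The authors deposited read counts per gene without normalization and FPKM. Checked against the counts, the deposited FPKM were those counts divided by library total and a gene constant (largest relative gap 9.1e-07 over 16315 genes), so they are no independent evidence.

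The count test was edgeR 4.0.16 (R 4.3.3) after filterByExpr, with TMM factors of 0.948 to 1.06, robust dispersions, the quasi-likelihood F test and Benjamini-Hochberg adjustment over 15242 genes, at a threshold of 0.05. Normalised CPM use the library total times its TMM factor. SE is the log2 fold change over the root of F. Alternatives were DESeq2 1.42.0, limma 3.58.1 (voom, and trend on log2(FPKM + 0.1) or log2(FPKM + 1), which shrinks the change of low genes), other scalings, no filter, the replicate number as a block, and each library left out. Ratios used log2(count + 0.5). Of 194 entries in 8 pathway lists and 154 in 14 marker lists, 188 and 154 were in the table.

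The 8 genes, the gene lists and the tests were chosen with earlier results of these data known. Genes were named by rule: all 8, up to 4 called genes of each list with the smallest p, 8 further genes whatever their result, and the 3 nearest profiles to Acsl4. On simulated counts for this comparison edgeR recovered 19% of 2-fold and 73% of 4-fold changes over 15126 genes, with 9.80% of its calls false, and DESeq2 51% and 87% with 28.1% false. Fewer genes were changed in the simulation than were called in the real data. Both rates depend on the share of changed genes, so they may not carry over to the real data. Coordinates and upstream sequences are RefSeq's for GRCm38.p6, with all 8 genes matched. Replicate libraries differed by far more than sampling noise (chi-square per gene 29.5 to 254).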

Additional observations from a re-analysis of the deposited data

How the results depend on the processing

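The direction of 7 of the 8 genes held in every alternative in which they could be tested, and Acss2 turned when artemisinin replicate 1 or model replicate 1 was left out (log2 −0.07 and −0.09; the range with 1 library left out was −0.086 to 0.34). For Acsl4 the log2 fold change ranged from −2.14 to −1.48 with 1 library left out. The Acsl4 call was lost with limma on log2(FPKM + 0.1) without a filter (−1.66, adjusted p = 0.051) and with the replicate block (−1.77, adjusted p = 0.0736). The cause was not tested. Genes called lower among the 8 numbered 0 in both of those fits, 0 to 2 with 1 library left out and 3 with DESeq2, which called 2 higher. Over all genes 331 were higher and 351 lower, against 464 and 319 with scaling by library totals, which moved the median log2 fold change from 0.04 to 0.15 and gave Acsl4 −1.57. DESeq2 called 1234 and 1052, limma on unfiltered FPKM called 207 lower, the replicate block gave 65 and 63 (of the genes named as called, it kept Elovl6, Fabp7 and Plin4 and lost Dgat2, Alox5ap, Lpcat1, Soat1, Acly, Slc27a3, Hacd4 and Snx25, with adjusted p from 0.0515 for Alox5ap to 0.0901 for Slc27a3), and leaving out 1 library gave 6 to 670 higher and 11 to 713 lower. Fits with a library left out have fewer mice. Deviations of same-numbered libraries correlated at −0.00395, −0.103 and 0.0303, and those of differently numbered libraries at −0.0993 to 0.1. These values showed no pairing of the mice by replicate number, but with so few libraries they cannot exclude it. Acsl6 was under the FPKM minimum of 0.5 and had no value in those fits. The depth of 9 to 21 model counts limits Acsl6.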
